A study of Mus musculus with 18 samples.

Results

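The 10 genes described here encode the enzymes and readers of histone H3 lysine 9 methylation (H3K9me), together with the corepressor that recruits one of them. They are Setdb1, its cofactor Atf7ip, Trim28, the methyltransferases Suv39h1, Suv39h2, Ehmt1 and Ehmt2, and the HP1 genes Cbx1, Cbx3 and Cbx5. They were taken by gene symbol from the deposited exon-level expression tables: 10 of 10 were present, among 24505 genes listed, and all 10 passed the filter on low values, a minimum FPKM of 1 reached by 3 or more libraries. The study sequenced RNA of mouse embryonic stem cells (ESCs) of the male line E14Tg2a, wild type (WT) or lacking a functional Daxx gene (Daxx-/-, here Daxx-null, abbreviated KO in the plots). Daxx encodes a chaperone for the histone variant H3.3. Each genotype was grown in serum with LIF (1000 units/mL), in 2i with vitamin C (100 µg/mL), or without LIF for 24 hours and then with 10 µM retinoic acid for 4 days, with 3 libraries in each of the 6 groups. 2i is a pair of kinase inhibitors that holds ESCs in a ground state, and retinoic acid without LIF was used for neural differentiation. The Daxx-null line was made from the WT line, and the labels name no other allele or transgene. The part of Daxx that was deleted and the number of Daxx-null clones were not found in the labels, and p-values measure only the spread between these libraries.

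H3K9 methylation marks silent chromatin. SETDB1 places H3K9me3 on retroelements and imprinted regions, where it is brought by TRIM28 (KAP1), which in turn is recruited by KRAB zinc finger proteins; ATF7IP stabilises SETDB1 and keeps it in the nucleus. SUV39H1 and SUV39H2 place H3K9me3 at pericentromeric heterochromatin, and EHMT1 (GLP) and EHMT2 (G9a) act as a heterodimer that places H3K9me1 and H3K9me2 in euchromatin. The HP1 proteins CBX5 (HP1α), CBX1 (HP1β) and CBX3 (HP1γ) bind the methylated lysine through their chromodomains. DAXX with ATRX deposits H3.3 at heterochromatin and retroelements, so the complexes share many of the sites that these genes act on.

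Levels are FPKM over exons, which correct for transcript length and so can be compared between genes; from the steps of the values, their scale was inferred to be 10 times that of a conventional FPKM. The depth inferred in the same way ran from 84210000 to 141740000 counting units per library, and the smallest number behind a value of the 10 genes was 2027 units, for Cbx3 in Daxx-null 2i replicate 2. Daxx itself fell in all 9 Daxx-null libraries, to 54.42 to 73.74 FPKM against 237.6 to 434.3 in the 9 WT libraries. Pluripotency marker Pou5f1 was at 7000 to 8380 FPKM in WT serum and 2i libraries and at 13.79 to 73.9 in WT cells after retinoic acid. In Daxx-null cells it was at 9265 to 11170 FPKM in serum and at 2.837 to 3.747 after retinoic acid. Several libraries stood apart from their group. In WT 2i replicate 3 Trim28 was far below the other libraries of its group, and Daxx-null 2i replicate 2 held less Pou5f1 (1918 FPKM against 5198 and 4250) and a summed neural marker level of 1889 FPKM against 279.2 and 255.5. In Daxx-null 2i replicate 1, transcripts of 6000 bases and over lay 0.516 lower on the log2 scale than transcripts under 2000 bases, relative to their group's mean. By the same measure, the long transcripts lay 0.357 higher than the short ones in Daxx-null 2i replicate 2. Summed FPKM of Eif2s3y, Uty and Ddx3y, genes of the Y chromosome, was 155.5 to 349.4 in WT libraries and 173.2 to 236.5 in Daxx-null 2i. It was 1.201 to 2.681 in Daxx-null serum and retinoic acid libraries, so the Daxx-null cells of 2i and of serum also differ in this respect, and that difference cannot be told apart from the culture. In serum and after retinoic acid it goes with genotype, and there it cannot be told apart from the loss of Daxx.

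Trim28 was the most abundant of the 10, with a mean over groups of 3454 FPKM, above 99.8% of tested genes. Cbx5 followed at 519.1 FPKM, then Cbx1 at 353.3, Ehmt2 at 347.9, Atf7ip at 245.7, Setdb1 at 238.0, Suv39h1 at 207.9, Cbx3 at 203.8, Ehmt1 at 176.0 and Suv39h2 at 97.26. The ratio of the highest to the lowest group mean ran from 1.52 for Setdb1 to 2.9 for Suv39h1. Daxx-null 2i was the lowest group for 6 genes (Suv39h2, Ehmt1, Ehmt2, Cbx1, Cbx3 and Cbx5) and Daxx-null retinoic acid the highest for 5 (Suv39h1, Suv39h2, Ehmt1, Ehmt2 and Cbx5). WT retinoic acid was lowest for Setdb1, Atf7ip and Trim28. Many of these ranks rest on means of groups whose libraries overlap. As the lowest group, Daxx-null 2i was apart from the next group for Ehmt2, Cbx1 and Cbx5 and overlapped it for Suv39h2, Ehmt1 and Cbx3. As the highest, Daxx-null retinoic acid was apart from the next group only for Suv39h2. WT retinoic acid was apart from the next group only for Trim28.

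**Figure D1:**
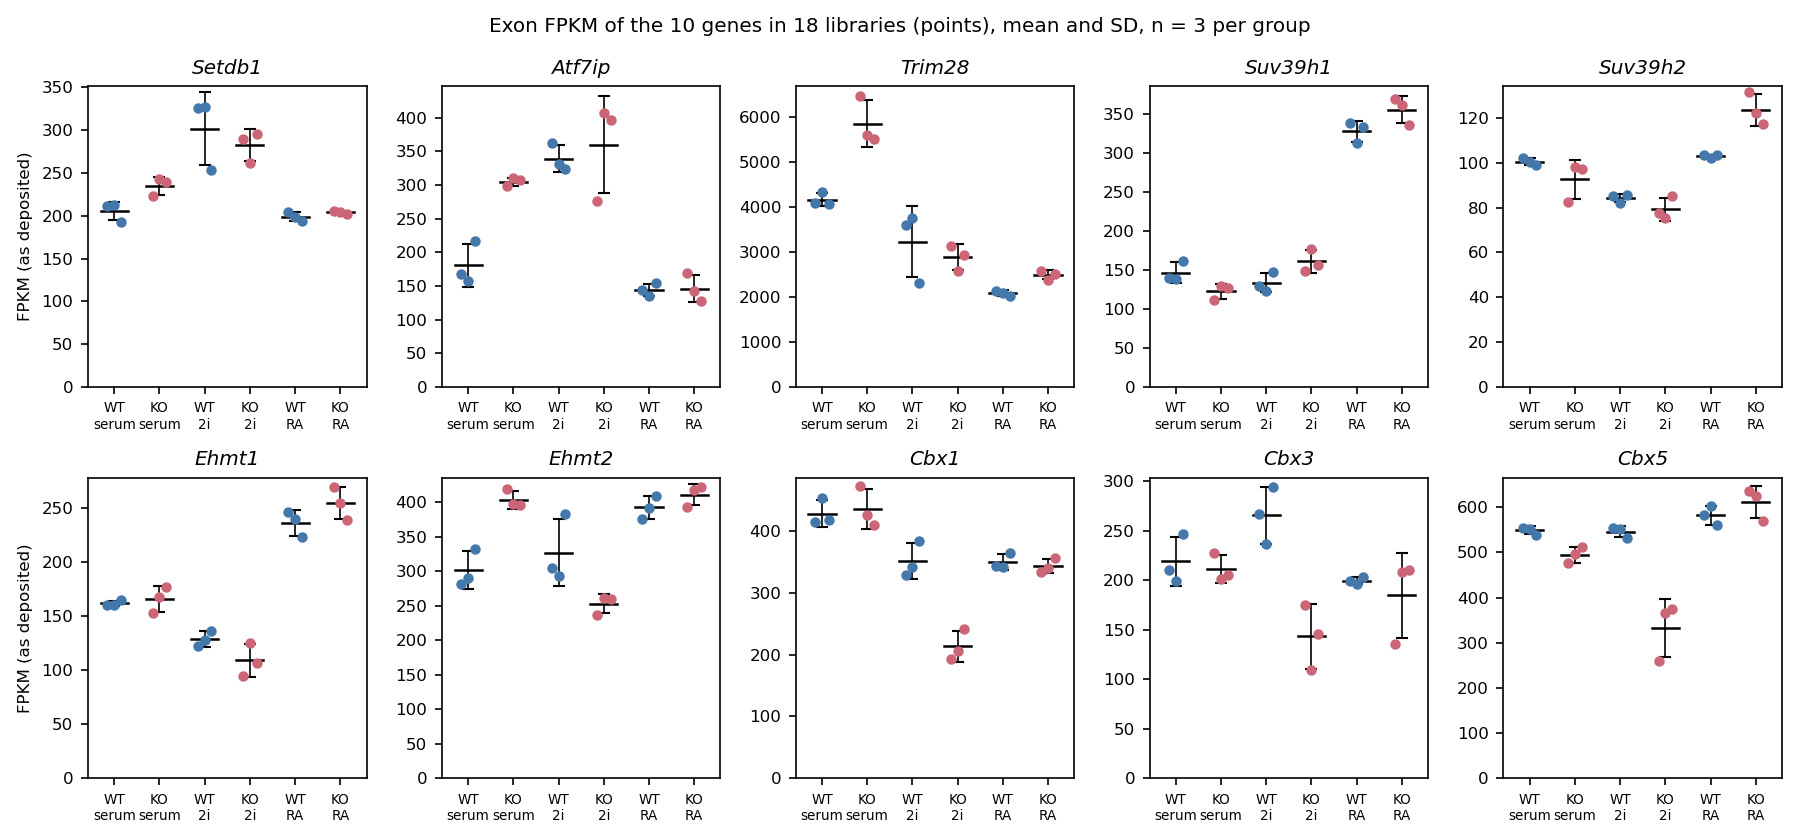
FPKM of each of the 10 genes (y axis, from 0, as deposited) in the 6 groups (x axis; WT wild type in blue, KO Daxx-null in red, RA retinoic acid); points are libraries, with the mean and SD of 3. Suv39h1 is highest after retinoic acid in both genotypes, and Cbx1 and Cbx5 are lowest in Daxx-null 2i.

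Differences were tested with limma on log2(FPKM + 0.5) over 18002 genes, with all 18 libraries in one fit, with Benjamini-Hochberg adjustment per comparison; genes with an adjusted p below 0.05 are described as called. The first question was how Daxx-null and WT cells differed in each culture. In serum, Atf7ip, Trim28 and Ehmt2 rose and no member fell, against 9.29% of all tested genes called higher and 18.9% called lower. In the same comparison 4 of 7 endoderm markers (55.3 to 71.16 FPKM summed in WT against 10.29 to 12.93), 3 of 5 tested blood and endothelium markers (202.9 to 243.6 against 91.6 to 118.0) and 3 of 6 fibroblast markers (51.33 to 87.11 against 23.32 to 28.29) fell. In WT serum 2 of 7 endoderm, 1 of 6 blood and endothelium and 3 of 6 fibroblast markers had a mean under 1 FPKM. In Daxx-null serum the numbers were 3, 2 and 4. The part of these markers in the changes of the members was not tested. In 2i, Cbx1, Cbx3, Cbx5, Ehmt1 and Ehmt2 fell and Suv39h1 rose, against 15.3% of genes called lower and 31.5% called higher. After retinoic acid no member was called by limma in either direction, against 0.222% of genes called higher and 2.27% lower. Of the members, only Suv39h2 had an unadjusted p under 0.05. In that comparison 5 of 8 pluripotency markers fell (median -1.29). Their summed level was 625.3 to 809.2 FPKM in WT and 570.5 to 936.5 in Daxx-null cells. Of 7 endoderm markers 2 fell, as did 2 of 5 tested blood and endothelium markers and 1 of 5 tested trophoblast markers. No neural, fibroblast or G2/M marker was called. The median log2 fold change of the 10 was 0.03 in serum, -0.19 in 2i and 0.07 after retinoic acid, and over all tested genes it was -0.12, 0.20 and -0.05. The split of all calls depended on the scaling of libraries. In serum 32.9% of calls were higher as reported, 51.0% after quantile normalization and 49.2% with median-ratio scaling. In 2i the shares were 67.3%, 47.0% and 53.7%. Under quantile normalization 2 members were called in serum, both higher, and 6 in 2i, all lower. Of all 18002 genes, 2178 were then called higher and 2093 lower in serum, and 3739 higher and 4224 lower in 2i. With median-ratio scaling 4 members were called higher in serum and 7 lower in 2i. Of all genes, 2446 were then called higher and 2528 lower in serum, and 4608 higher and 3967 lower in 2i.

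**Figure D2:**
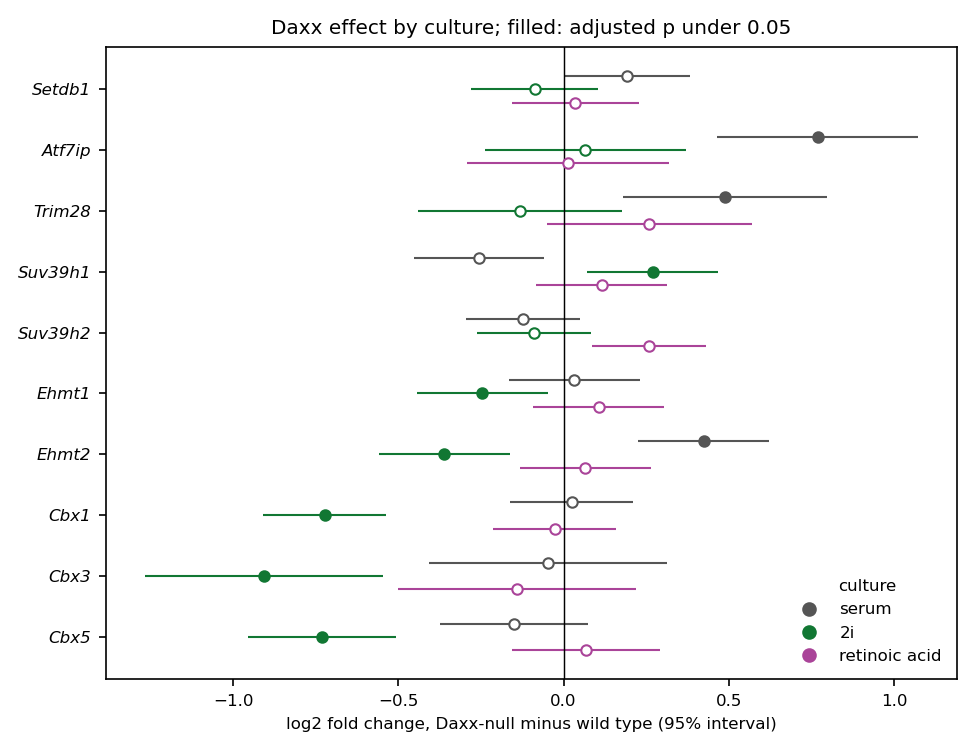
Log2 fold change of Daxx-null over wild type (x axis) for each gene (y axis) in serum, 2i and retinoic acid; points are limma estimates with 95% confidence intervals, filled where the adjusted p was under 0.05. The 3 HP1 genes lie at -0.72, -0.91 and -0.73 in 2i and near 0 in the other cultures, while Atf7ip lies at 0.77 in serum.

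The second question was whether the Daxx effect differed between cultures, tested as an interaction. Between 2i and serum it differed for 7 members: it was lower in 2i for Atf7ip, Trim28, Ehmt2, Cbx1, Cbx3 and Cbx5 and higher for Suv39h1. Over all genes 11.5% were called lower and 31.5% higher, with a median of 0.34, and 73.2% of calls were higher as reported, 46.7% after quantile normalization and 54.0% with median-ratio scaling. Cbx1, Cbx3 and Ehmt2 kept their interaction call in every alternative run. Between retinoic acid and serum only Atf7ip was called, lower, against 3.38% of genes called lower and 4.82% higher; 58.8% of those calls were higher as reported, 46.2% after quantile normalization and 47.0% with median-ratio scaling. These interactions share the serum libraries.

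The third question was how the cultures themselves differed. In WT cells, 2i with vitamin C held more Setdb1 and Atf7ip than serum and less Trim28, Ehmt1, Suv39h2 and Cbx1, against 24.7% of genes called higher and 24.8% lower. Same-numbered libraries of these groups were taken as pairs, and with that block and only these groups fitted Trim28 was no longer called (adjusted p = 0.094) and Cbx3 was called higher (0.28, adjusted p = 0.014). In Daxx-null cells Setdb1 and Suv39h1 were higher in 2i and 7 members lower (Trim28, Suv39h2, Ehmt1, Ehmt2, Cbx1, Cbx3 and Cbx5), against 41.8% higher and 21.8% lower. There 65.7% of all calls were higher as reported, 45.0% after quantile normalization and 54.3% with median-ratio scaling, and all genes had a median of 0.28. After retinoic acid, WT cells held more Suv39h1, Ehmt1 and Ehmt2 and less Trim28 and Cbx1 than in serum, against 30.4% of genes called higher and 34.1% lower. Daxx-null cells held more Suv39h1, Suv39h2, Ehmt1 and Cbx5 and less Atf7ip, Trim28 and Cbx1, against 33.0% higher and 33.1% lower. Retinoic acid cultures also differed from serum in their cell type markers. In WT cells 8 of 8 pluripotency markers fell (summed level 625.3 to 809.2 FPKM against 23080 to 24260, none with a mean under 1 FPKM) and 6 of 8 neural markers rose (929.6 to 1163 against 540.0 to 624.3 FPKM, 2 with a mean under 1 FPKM in serum). All 7 endoderm markers rose as well (535.5 to 970.6 against 55.3 to 71.16 FPKM, 2 with a mean under 1 FPKM in serum). Of 5 tested trophoblast markers 3 rose and 1 fell (6 summed, 1090 to 1270 against 76.57 to 174.0 FPKM). Of 6 fibroblast markers 5 rose and 1 fell (227.2 to 333.1 against 51.33 to 87.11 FPKM, 3 with a mean under 1 FPKM in serum). Of 12 G2/M genes 10 fell and none rose. Between Daxx-null 2i and serum, 5 of 8 pluripotency markers fell and 1 rose, and 7 of 7 endoderm markers rose (10.29 to 12.93 FPKM in serum against 231.4 to 350.3 in 2i). All 5 tested trophoblast markers rose, 5 of 6 fibroblast markers rose and 1 fell, and 9 of 12 G2/M genes fell. In bulk RNA fewer cells of a type and less RNA per cell cannot be told apart, and the part of cell makeup in these changes was not tested.

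**Figure D3:**
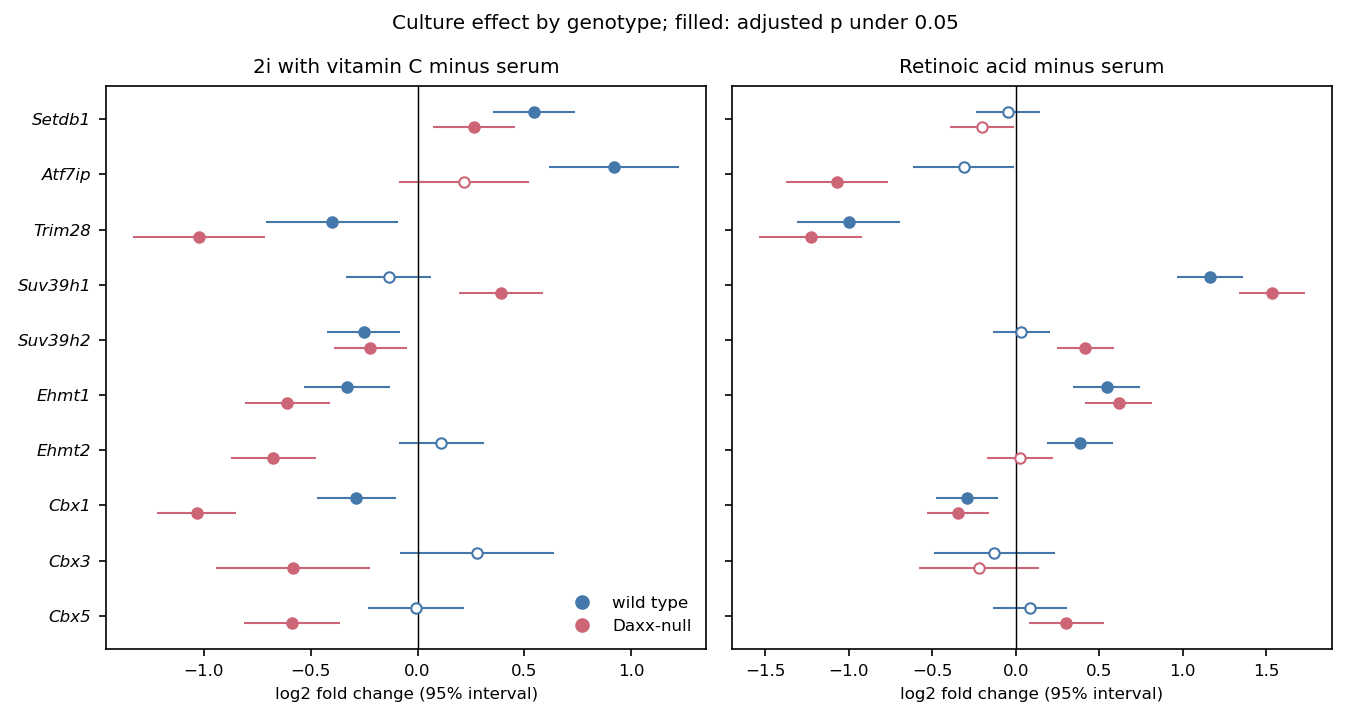
Log2 fold change of 2i with vitamin C over serum (left) and of retinoic acid over serum (right) on the x axis, for each gene (y axis), in wild type (blue) and Daxx-null cells (red), with 95% confidence intervals; filled points had an adjusted p under 0.05. Suv39h1 lies at 1.16 and 1.53 after retinoic acid, and Cbx1 falls by more in Daxx-null 2i (-1.03) than in wild-type 2i (-0.29).

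Setdb1 (NM_018877, exons within chr3:95127447-95161124 of mm9, minus strand) followed the culture more than the genotype. In WT cells its FPKM was 211.3, 212.1 and 193.2 in serum and 325.7, 326.8 and 253.0 in 2i. The 2i libraries all lay above the serum libraries, a log2 fold change of 0.55 (SE 0.09, adjusted p = 0.00012). Daxx-null libraries held 223.0, 242.5 and 239.2 FPKM in serum, all above WT serum, yet the difference of 0.19 was not called (adjusted p = 0.12); it was called with median-ratio scaling (0.30, adjusted p = 0.012) and with only the 2 serum groups in the fit (adjusted p = 0.044). In Daxx-null 2i the values were 289.8, 261.2 and 296.2 FPKM, within the range of WT 2i. The rise from serum to 2i in Daxx-null cells (0.26, adjusted p = 0.018) was 0.05 with median-ratio scaling and was then not called (adjusted p = 0.58); nor was it called without Daxx-null 2i replicate 3 (adjusted p = 0.063) or Daxx-null serum replicate 1 (adjusted p = 0.067). With chromosome medians of levels removed it turned to -0.31 (adjusted p = 0.0061). In 2i the Daxx-null level was called lower without WT 2i replicate 3 (-0.21, adjusted p = 0.03) and with median-ratio scaling (-0.24, adjusted p = 0.024). The 6 retinoic acid libraries lay between 193.9 and 205.7 FPKM. The Setdb1 entry overlaps Cers2 on the opposite strand by 75 bases, and the labels do not say whether strand was used in counting; Cers2 rose by 1.15 in WT 2i.

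Atf7ip (NM_019426, chr6:136467372-136555900, plus strand) showed the Daxx effect in serum. WT serum libraries held 168.1, 156.7 and 217.0 FPKM and Daxx-null serum libraries 298.4, 309.9 and 307.0. The groups did not overlap, and the rise was 1.7-fold (log2 0.77, SE 0.14, adjusted p = 0.0011); it was called in each of the 16 alternatives run, with values from 0.67 to 1.12. In 2i WT cells already held 362.0, 330.6 and 324.1 FPKM and Daxx-null cells 276.7, 406.5 and 395.9, which overlap (log2 0.07, adjusted p = 0.73). From serum to 2i, Atf7ip in Daxx-null cells differed by 0.22 (adjusted p = 0.2), and by 0.40 without Daxx-null 2i replicate 1 (adjusted p = 0.014); with chromosome medians of levels removed it turned to -0.65 (adjusted p = 0.00027). After retinoic acid both genotypes were low, with 143.3, 135.2 and 153.8 FPKM in WT and 168.5, 142.1 and 127.8 in Daxx-null cells. The Daxx effect was thus 0.70 lower in 2i than in serum (SE 0.20, adjusted p = 0.011) and 0.76 lower after retinoic acid than in serum (SE 0.20, adjusted p = 0.031). Under quantile normalization neither difference was called (adjusted p = 0.086 and 0.096), and 9 of the 12 fits that left out 1 library lost the retinoic acid difference. The 0.92 rise from serum to 2i in WT cells was 0.55 after the median shift of its chromosome was removed, since the median gene of chromosome 6 rose by 0.36 in WT 2i. Across the 4 ESC groups the ratio of Atf7ip to Setdb1 was 0.886 ± 0.208 in WT serum, 1.30 ± 0.0332 in Daxx-null serum, 1.14 ± 0.136 in WT 2i and 1.28 ± 0.304 in Daxx-null 2i (SD, n = 3).

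Trim28 (NM_011588, chr7:13609501-13616381, plus strand) was highest in Daxx-null serum, with 6473, 5599 and 5511 FPKM against 4090, 4337 and 4072 in WT serum. Those groups did not overlap, a 1.4-fold difference (log2 0.49, SE 0.15, adjusted p = 0.02). The call was lost under quantile normalization (0.38, adjusted p = 0.13), and without Daxx-null serum replicate 1 (0.42, adjusted p = 0.089), WT serum replicate 1 (adjusted p = 0.058) or WT serum replicate 3 (adjusted p = 0.06). In 2i the WT libraries held 3613, 3760 and 2315 FPKM and the Daxx-null libraries 3142, 2582 and 2941. Replicate 3 of WT 2i was lower than every Daxx-null 2i library, and the other 2 WT libraries were higher than all of them. With all libraries Trim28 did not pass the test in 2i (-0.13, adjusted p = 0.47); without WT 2i replicate 3 it was lower in Daxx-null cells by 0.36 (adjusted p = 0.013). That library also decided the 2i against serum change in WT cells, -0.40 with it (adjusted p = 0.032) and -0.18 without it (adjusted p = 0.17), and with the replicate number as a block and only these groups in the fit the call was lost as well (adjusted p = 0.094). It was also lost without any 1 WT serum library (adjusted p from 0.056 to 0.09) and with quantile normalization (-0.33, adjusted p = 0.13). The difference of the Daxx effect between 2i and serum (-0.62, SE 0.21, adjusted p = 0.023) was not called with quantile normalization (-0.29, adjusted p = 0.38), with only the groups compared (adjusted p = 0.07), or without Daxx-null serum replicate 1 (adjusted p = 0.062), WT 2i replicate 1 (adjusted p = 0.062) or WT 2i replicate 2 (adjusted p = 0.064). In Daxx-null cells Trim28 fell from serum to 2i to 0.493 of the serum level (log2 -1.02, SE 0.15, adjusted p = 1.5e-05). After retinoic acid WT libraries held 2142, 2099 and 2011 FPKM and Daxx-null libraries 2589, 2387 and 2514, which do not overlap but were not called (0.26, adjusted p = 0.52). Relative to serum, Trim28 fell to 0.5 of its level in WT cells and to 0.427 in Daxx-null cells (adjusted p = 1.8e-05 and 1.7e-06).

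Suv39h1 (NM_001290716, chrX:7638297-7651439, minus strand) and Suv39h2 (NR_027509, a non-coding transcript entry at chr2:3373087-3392258, minus strand) encode paralogous enzymes. Suv39h1 held 139.7, 138.5 and 161.5 FPKM in WT serum and 338.5, 312.9 and 333.1 after retinoic acid. The retinoic acid libraries all lay above, a 2.24-fold rise (log2 1.16, SE 0.09, adjusted p = 2.5e-08). In Daxx-null cells it went from 111.7, 128.9 and 127.3 FPKM to 369.2, 361.5 and 335.8, a 2.89-fold rise (adjusted p = 7.9e-10). The difference between the genotypes in this rise was not called (0.37, adjusted p = 0.099). Suv39h2 stayed at 102.2, 100.6 and 98.94 FPKM in WT serum and 103.5, 102.3 and 103.5 after retinoic acid in WT cells (0.04, adjusted p = 0.73). In Daxx-null cells it went from 82.59, 98.13 and 97.25 to 131.5, 122.2 and 117.2 FPKM, a called rise of 0.42 (adjusted p = 0.00028) that was 0.03 with chromosome medians of levels removed (adjusted p = 0.77). After retinoic acid the Daxx-null libraries lay above the WT ones, with an unadjusted p = 0.0057 and an adjusted p = 0.13 in limma, so this difference was not called. The ratio of Suv39h1 to Suv39h2 was 1.46 ± 0.151 in WT serum, 1.33 ± 0.0241 in Daxx-null serum, 1.58 ± 0.119 in WT 2i and 2.04 ± 0.279 in Daxx-null 2i (SD, n = 3). It was 3.18 ± 0.111 in WT and 2.88 ± 0.0762 in Daxx-null cells after retinoic acid, above every library of the other cultures.

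In 2i Suv39h1 held 129.5, 123.6 and 147.3 FPKM in WT cells and 148.8, 177.5 and 156.8 in Daxx-null cells. The groups did not overlap and the difference was small (0.27, SE 0.09, adjusted p = 0.026). The median gene of the X chromosome was higher by 0.45 in the same comparison, more than Suv39h1, and with the chromosome shift removed Suv39h1 stood at 0.09 (adjusted p = 0.49) when medians of differences were removed and at -0.37 (adjusted p = 0.051) when medians of levels were removed, which turns the direction. The call was also lost under quantile normalization (adjusted p = 0.077), with median-ratio scaling (0.12, adjusted p = 0.34), with only the 2i groups fitted (adjusted p = 0.14), and without Daxx-null 2i replicate 2 (0.20, adjusted p = 0.11), WT 2i replicate 1 (adjusted p = 0.072) or WT 2i replicate 2 (adjusted p = 0.1). The interaction with serum of 0.53 (adjusted p = 0.0049) fell to 0.26 with median-ratio scaling (adjusted p = 0.14) and to 0.27 with chromosome medians of differences removed (adjusted p = 0.13), and was -0.48 with medians of levels removed (adjusted p = 0.073). The rise of 0.39 from serum to 2i in Daxx-null cells (adjusted p = 0.0017) was 0.01 with medians of differences removed (adjusted p = 0.92) and turned to -0.85 with medians of levels removed (adjusted p = 0.00011). Suv39h2 in 2i was 85.04, 82.22 and 85.69 FPKM in WT and 77.55, 75.22 and 85.09 in Daxx-null cells, which overlap; the difference of -0.09 (adjusted p = 0.38) was called with quantile normalization (-0.23, adjusted p = 0.026) and median-ratio scaling (-0.24, adjusted p = 0.025). The fall of Suv39h2 from serum to 2i was called in WT (-0.25, adjusted p = 0.017) and in Daxx-null cells (-0.22, adjusted p = 0.026). The first call was kept in 15 of 18 alternatives, with a limma adjusted p of up to 0.059. Among the losses were the fits without WT 2i replicate 2 (adjusted p = 0.053) or WT serum replicate 1 (adjusted p = 0.052). The second call was kept in 11 of 17 alternatives, with an adjusted p of up to 0.14. Its losses included the fits without Daxx-null 2i replicate 1 or 2 (adjusted p = 0.053 and 0.081). They also included those without Daxx-null serum replicate 2 or 3 (adjusted p = 0.11 and 0.1).

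Ehmt1 (NM_001109686, chr2:24646289-24775129, minus strand) and Ehmt2 (NM_147151, chr17:35035437-35050995, plus strand) encode the subunits of one complex. Across the 18 libraries their levels had a Pearson r of 0.789, and in Daxx-null serum Ehmt2 rose while Ehmt1 differed by 0.03 (adjusted p = 0.84). Ehmt2 held 281.8, 289.6 and 332.5 FPKM in WT serum and 418.5, 397.0 and 395.3 in Daxx-null serum. The groups were apart, a 1.34-fold rise (log2 0.42, SE 0.09, adjusted p = 0.0033). In 2i the direction was opposite: 304.8, 293.0 and 382.3 FPKM in WT and 236.6, 261.7 and 259.7 in Daxx-null cells, again apart (-0.36, SE 0.09, adjusted p = 0.0051). The test of the difference between the cultures gave -0.79 (SE 0.13, adjusted p = 0.00028), called in each of the 23 alternatives run. With only the 2i groups fitted the 2i fall was not called (adjusted p = 0.087). After retinoic acid the genotypes overlapped, at 376.2, 391.9 and 408.7 FPKM in WT and 393.3, 416.8 and 422.1 in Daxx-null cells. The rise from serum to retinoic acid was called in WT cells (0.38, adjusted p = 0.0019) and not in Daxx-null cells, whose serum level was already high (0.03, adjusted p = 0.84); the test of that difference did not pass (-0.36, adjusted p = 0.11).

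Ehmt1 rose from 160.1, 160.6 and 164.7 FPKM in WT serum to 246.5, 239.9 and 222.9 after retinoic acid (0.55, SE 0.09, adjusted p = 9.5e-05). In Daxx-null cells it rose from 153.0, 167.6 and 176.9 to 269.3, 254.8 and 239.4 FPKM (0.62, adjusted p = 2.5e-05). It was lower in 2i than in serum in both genotypes, at 122.1, 127.5 and 136.5 FPKM in WT and 94.93, 125.5 and 106.7 in Daxx-null cells. The 2i groups overlapped in 1 library, Daxx-null replicate 2, and the called difference of -0.25 (adjusted p = 0.042) was lost without Daxx-null 2i replicate 1 (-0.15, adjusted p = 0.17), Daxx-null 2i replicate 3 (adjusted p = 0.088), WT 2i replicate 2 (adjusted p = 0.073) or WT 2i replicate 3 (adjusted p = 0.13). This difference was also not called with only the 2i groups fitted (adjusted p = 0.21). The ratio of Ehmt2 to Ehmt1 was 1.86 ± 0.138 in WT serum and 2.45 ± 0.259 in Daxx-null serum, and 1.66 ± 0.156 and 1.62 ± 0.152 after retinoic acid (SD, n = 3).

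The 3 HP1 genes all fell in Daxx-null 2i. Cbx1 (NM_007622, chr11:96650450-96669954, plus strand), Cbx3 (NM_007624, chr6:51420615-51433703, plus strand) and Cbx5 (NM_001076789, chr15:103021977-103070247, minus strand) lie on different chromosomes. The region before each start is shown because the 3 genes fell together in Daxx-null 2i while 1 of their 2 divergent neighbours did so. In the deposited coordinates Cbx3 starts 722 bases from Hnrnpa2b1 and Cbx5 581 bases from Hnrnpa1, each on the opposite strand; both neighbours encode RNA-binding proteins. The sequences are the 250 bases before the 5′-most start in RefSeq's GRCm38.p6 table, 5′ to 3′ on the gene's strand, which is another build than the mm9 of the expression files. All 10 members matched that table. Capitals mark matches, on either strand, to 3 motifs, which may overlap: the CCAAT box, the GC box with the letters GGGCGG, and an E2F-type motif with the letters TTCCCGC.
Cbx1 promoter, chr11:96788885-96789134, plus strand: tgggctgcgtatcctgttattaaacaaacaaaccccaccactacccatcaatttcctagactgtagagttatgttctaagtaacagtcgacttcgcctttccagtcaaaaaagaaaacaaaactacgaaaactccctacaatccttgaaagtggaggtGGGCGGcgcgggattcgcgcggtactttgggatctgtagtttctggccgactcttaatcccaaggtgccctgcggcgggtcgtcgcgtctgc
Cbx3 promoter, chr6:51470366-51470615, plus strand: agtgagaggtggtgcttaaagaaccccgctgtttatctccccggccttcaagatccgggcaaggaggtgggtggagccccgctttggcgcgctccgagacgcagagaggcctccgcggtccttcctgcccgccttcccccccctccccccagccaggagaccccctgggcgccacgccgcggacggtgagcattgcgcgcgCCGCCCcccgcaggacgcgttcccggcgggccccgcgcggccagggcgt
Hnrnpa2b1 promoter, chr6:51469895-51470144, minus strand: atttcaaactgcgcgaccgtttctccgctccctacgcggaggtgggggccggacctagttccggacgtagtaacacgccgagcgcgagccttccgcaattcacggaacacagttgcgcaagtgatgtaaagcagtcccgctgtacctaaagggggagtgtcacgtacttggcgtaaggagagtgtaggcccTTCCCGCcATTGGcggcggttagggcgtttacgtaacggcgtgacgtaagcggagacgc
Cbx5 promoter, chr15:103239853-103240102, minus strand: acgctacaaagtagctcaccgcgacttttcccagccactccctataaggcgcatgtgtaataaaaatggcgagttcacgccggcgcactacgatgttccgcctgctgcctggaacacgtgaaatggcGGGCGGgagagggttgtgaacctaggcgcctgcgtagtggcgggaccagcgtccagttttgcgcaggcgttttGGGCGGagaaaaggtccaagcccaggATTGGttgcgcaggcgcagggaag
Hnrnpa1 promoter, chr15:103240147-103240396, plus strand: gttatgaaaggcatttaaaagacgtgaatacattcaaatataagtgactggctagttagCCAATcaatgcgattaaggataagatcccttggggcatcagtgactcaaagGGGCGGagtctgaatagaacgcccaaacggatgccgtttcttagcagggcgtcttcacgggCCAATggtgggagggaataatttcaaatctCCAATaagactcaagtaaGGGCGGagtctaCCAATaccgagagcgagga

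The GC box was matched in all 3 HP1 windows, 1 time in Cbx1 and Cbx3 and 2 times in Cbx5; 32.7% of the 32851 windows of the table hold it. The CCAAT box was matched in the Cbx5 window and not in those of Cbx1 and Cbx3, against 33.8% of all windows. Hnrnpa1 held 4 CCAAT and 2 GC box matches, and Hnrnpa2b1 held 1 CCAAT and 1 TTCCCGC match, a motif found in 3.82% of windows. The letters TATAAA (12.4% of windows), TGCGCATGC (NRF1-type, 1.28%) and AAGATGGCG (YY1-type, 0.606%) were matched in none of these 5. The GC content was 49.6% for Cbx1, 73.2% for Cbx3 and 59.2% for Cbx5, and the median of all windows was 52.4%. The 3 HP1 windows thus had only the GC box in common among the 6 motifs searched. It was also matched in the window of every other member, from 1 time in Setdb1 to 3 times in Suv39h2. The GC box therefore does not set the HP1 genes apart from the members that did not fall.

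Cbx5 held 553.5, 551.1 and 531.4 FPKM in WT 2i and 259.1, 365.2 and 374.3 in Daxx-null 2i. The lowest value was in replicate 1, the library in which long transcripts were low, and the Cbx5 entry has 8794 bases. The part of transcript length in that value was not tested. No library overlapped, and the level in Daxx-null cells was 0.603 of WT (log2 -0.73, SE 0.11, adjusted p = 6.1e-05). Cbx1 held 328.6, 342.0 and 383.1 FPKM in WT 2i and 192.9, 205.3 and 240.9 in Daxx-null 2i. It was at 0.606 of WT, again with no overlap (log2 -0.72, SE 0.09, adjusted p = 1.4e-05). Cbx3 held 266.7, 236.1 and 293.8 FPKM in WT 2i and 174.8, 109.0 and 146.0 in Daxx-null 2i, a level of 0.533 of WT (log2 -0.91, SE 0.17, adjusted p = 0.00049). Its lowest value was in replicate 2, the library in which short transcripts were low, and the Cbx3 entry has 1795 bases. The part of transcript length in the Cbx3 value was not tested either. All 3 calls held in each of the 17 alternatives run; the fold changes then ranged from -0.98 to -0.64 for Cbx1, from -1.06 to -0.63 for Cbx3 and from -0.92 to -0.56 for Cbx5. Cbx3 lies on chromosome 6, whose median gene was at -0.10 in this comparison against 0.20 for all genes, and with chromosome shifts removed Cbx3 stood at -0.63 (adjusted p = 0.0067). Cbx3 has 8 named pseudogenes in GENCODE M21, so reads could be split among copies and its level is less certain. The entry Gm11517 overlaps Cbx1 by 2825 bases on the opposite strand; it rose by 1.65 in this comparison while Cbx1 fell.

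In the other cultures the HP1 genes did not pass the test between genotypes as reported. In serum Cbx1 and Cbx5 were each called in some alternative, with a lowest adjusted p of 0.015 and 0.032 in limma. Over the alternatives their serum differences ran from -0.034 to 0.392 for Cbx1 and from -0.199 to 0.116 for Cbx5. Cbx1 held 413.5, 452.1 and 417.6 FPKM in WT serum and 471.8, 425.6 and 409.5 in Daxx-null serum. Cbx3 held 210.1, 199.5 and 247.0 FPKM in WT serum and 227.1, 201.7 and 204.9 in Daxx-null serum. Cbx5 held 554.9, 552.6 and 538.6 FPKM in WT serum and 475.7, 496.6 and 510.9 in Daxx-null serum; these do not overlap but gave an adjusted p = 0.31 (-0.15). After retinoic acid WT and Daxx-null levels overlapped for all 3, with Cbx1 between 334.0 and 364.6 FPKM and Cbx5 between 561.1 and 636.9. Cbx3 was at 135.4 FPKM in Daxx-null retinoic acid replicate 1, while the other 5 retinoic acid libraries lay between 196.6 and 210.5. The Daxx effect in 2i differed from that in serum by -0.75 for Cbx1 (adjusted p = 0.00025), -0.86 for Cbx3 (adjusted p = 0.0092) and -0.58 for Cbx5 (adjusted p = 0.0056). For Cbx5 the last was lost under quantile normalization (-0.43, adjusted p = 0.099). Among the culture changes, the fall of Cbx1 in WT 2i (-0.29, adjusted p = 0.013) was lost without WT 2i replicate 1 (adjusted p = 0.061) or WT serum replicate 2 (adjusted p = 0.059), and with chromosome medians of levels removed it was -0.01 (adjusted p = 0.95). Its fall after retinoic acid in WT cells (-0.29, adjusted p = 0.0083) was -0.08 under quantile normalization (adjusted p = 0.41). In Daxx-null cells the fall of Cbx1 after retinoic acid (-0.34, adjusted p = 0.0026) was also lost under quantile normalization (-0.12, adjusted p = 0.22). The rise of Cbx5 after retinoic acid in Daxx-null cells (0.30, adjusted p = 0.018) was lost without Daxx-null retinoic acid replicate 1 (adjusted p = 0.061) or 2 (adjusted p = 0.055) or Daxx-null serum replicate 1 (adjusted p = 0.06), and turned to -0.05 with chromosome medians of levels removed (adjusted p = 0.68). In WT cells Cbx3 was higher in 2i than in serum in 3 of 3 same-numbered pairs; the difference of 0.28 was not called as reported (adjusted p = 0.19) and was called with the replicate number as a block and only these groups fitted (adjusted p = 0.014). With chromosome medians of levels removed it was -0.10 (adjusted p = 0.7).

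The summed FPKM of the 3 HP1 genes was nearly level across 5 groups: 1195 ± 14.6 in WT serum, 1141 ± 28.9 in Daxx-null serum, 1162 ± 41.2 in WT 2i, 1131 ± 7.59 in WT retinoic acid and 1138 ± 32.9 in Daxx-null retinoic acid (SD, n = 3). In Daxx-null 2i it was 689.2 ± 67.7. The 3 Daxx-null 2i libraries lay between 626.9 and 761.2 FPKM and the other 15 between 1106 and 1208. The shares within the sum changed little between the 2i groups: Cbx5 made up 46.99 ± 2.62% in WT and 48.08 ± 6.27% in Daxx-null cells, and Cbx1 30.2 ± 1.55% and 30.88 ± 0.72%. Cbx3 made up 22.81 ± 1.74% and 21.04 ± 6.14%. Between serum and retinoic acid the shares moved under the level sum. Cbx1 went from 35.78% to 30.89% in WT and from 38.14% to 30.14% in Daxx-null cells. Cbx5 went from 45.91% to 51.47% and from 43.36% to 53.7%. Short and long transcripts moved apart in the same comparison. The median log2 fold change of transcripts under 2000 bases was -0.299 in WT and -0.255 in Daxx-null cells. For those of 6000 bases and over it was 0.202 and 0.265. The Cbx1 entry has 1266 bases and the Cbx5 entry 8794. The part of transcript length in these shares, and in the Cbx1 and Cbx5 calls after retinoic acid, was not tested.

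**Figure D4:**
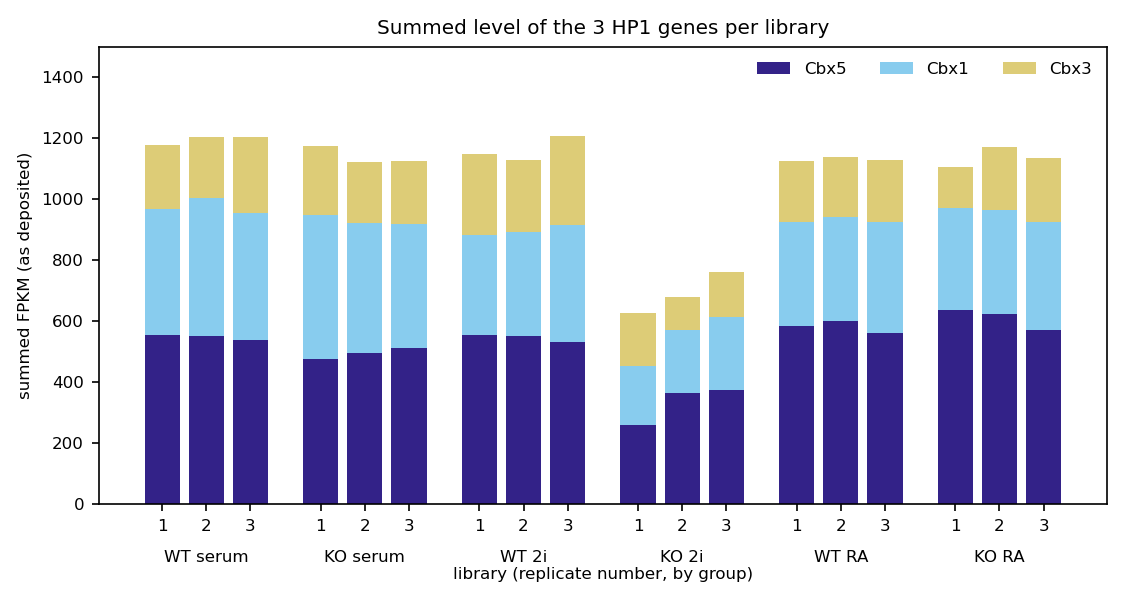
Summed FPKM (y axis, from 0, as deposited) of Cbx5, Cbx1 and Cbx3, stacked, in each of the 18 libraries (x axis, replicate number by group; WT wild type, KO Daxx-null, RA retinoic acid). The 3 Daxx-null 2i libraries reach 626.9 to 761.2, below the 1106 to 1208 of the other 15.

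The divergent neighbours differed. Hnrnpa2b1 held 975.6, 1007 and 957.4 FPKM in WT 2i and 662.5, 622.5 and 656.6 in Daxx-null 2i, a fall of 0.60 on the log2 scale (adjusted p = 7.2e-06), as its partner Cbx3 fell. Hnrnpa1 held 1050, 1054 and 1026 FPKM in WT 2i and 1304, 832.3 and 1038 in Daxx-null 2i (0.00, 95% interval -0.27 to 0.27, adjusted p = 0.99), while its partner Cbx5 fell. The Hnrnpa1 locus also carries the entries Gm5643 and Gm10052, so reads there could be split. Proliferation and cell type markers moved in the same comparison. Of 12 G2/M genes 10 fell and none rose, with a summed level of 3440 to 3859 FPKM in WT 2i and 2523 to 2652 in Daxx-null 2i. Of 8 pluripotency markers 4 fell (22610 to 24640 against 10030 to 19150 FPKM). Of 7 endoderm markers 5 rose (38.74 to 94.77 against 231.4 to 350.3 FPKM, 1 with a mean under 1 FPKM in each group). Of 5 tested trophoblast markers 3 rose (6 summed, 64.98 to 164.8 against 592.2 to 777.1 FPKM, 1 with a mean under 1 FPKM in WT). Their part in the fall of the HP1 genes was not tested. Without Daxx-null 2i replicate 2 and WT 2i replicate 3, the fold changes were -0.64 for Cbx1, -0.65 for Cbx3 and -0.83 for Cbx5 (adjusted p = 0.00018, 0.0083 and 0.00012).

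Genes that work with the 10 were counted from lists of 52 matched genes, chosen with earlier results of these data known. Their counts stand against 9.29% of all genes called higher and 18.9% lower in serum, and 31.5% higher and 15.3% lower in 2i. After retinoic acid the shares were 0.222% higher and 2.27% lower. Of 9 partners of SETDB1 and TRIM28, including the HUSH complex, which spreads H3K9me3 over integrated elements, 6 rose in Daxx-null serum and none fell (median 0.34). The largest changes were those of Atf7ip2, the paralogue of Atf7ip (1.22), and Fam208a (Tasor), the HUSH scaffold (0.52). In 2i, 3 of the 9 rose and 1 fell (median 0.13), led by a fall of the remodeller Smarcad1 (-0.74) and a rise of the HUSH subunit Pphln1 (0.67). Of 8 KRAB zinc finger genes that act through TRIM28, 4 rose and 1 fell in Daxx-null serum (median 0.28): Zfp819 rose by 1.37 and Gm15446 fell by 1.05. None of the 8 was called in 2i (median -0.15), and after retinoic acid only Zfp809, which silences murine retroviruses, fell (-0.62). Of 9 partners of EHMT1 and EHMT2, none was called in serum (median 0.17). In 2i, 4 fell and 2 rose (median -0.28), led by Cdyl2 (-0.94), a chromodomain gene, and L3mbtl2 (-0.65), a subunit of the PRC1.6 complex.

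Of 10 HP1 partners and H4K20 methyltransferases, which act downstream of HP1, none rose and 2 fell in Daxx-null serum (median 0.04), Kmt5c, an H4K20 trimethylase (-0.42), and Chaf1b (-0.39). In 2i, 1 rose and 2 fell (median 0.05), led by Lrif1, an HP1-binding protein (1.45), and Chaf1a, the CAF-1 subunit that binds HP1 (-0.38). Of all genes, 9.29% were called higher and 18.9% lower in serum, and 31.5% higher and 15.3% lower in 2i. Of 12 H3K9 demethylases 1 rose and 3 fell in serum (median -0.17): Hr rose by 1.05 and Kdm7a fell by 1.05. In 2i 1 rose, Hr (1.44), and 4 fell, led by Kdm3a (-0.55) (median -0.06). Of 4 other H3K9 methyltransferases, Mecom was called in serum (0.84), and in 2i Setdb2 rose (0.95) and Prdm16 fell (-0.78). After retinoic acid none of the 52 genes other than Zfp809 was called between the genotypes. There 0.222% of all genes were called higher and 2.27% lower. After retinoic acid in WT cells, where 30.4% of all genes were called higher and 34.1% lower, 1 of 12 demethylases rose, Phf2 (2.39), and 8 fell, led by Kdm4c (-2.196). Of the EHMT1 and EHMT2 partners 3 rose and 5 fell, led by Cdyl2 (-3.95) and E2f6 (1.64), a repressor of the PRC1.6 complex. Of the SETDB1 and TRIM28 partners 2 rose and 4 fell, led by Atf7ip2 (-1.46) and Morc3 (-1.44). Of the KRAB zinc finger genes 2 rose and 3 fell, led by Zfp819 (-2.10) and Zfp57 (-2.06), which guards imprints. Of the HP1 partners 5 rose and 3 fell, led by Senp7 (1.58), a SUMO protease, and Lrif1 (1.07). Mecom was the 1 called gene of the other methyltransferases (5.57).

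In WT 2i relative to serum, where 24.7% of all genes were called higher and 24.8% lower, 2 of 12 demethylases rose and 6 fell, led by Hr (-1.50) and Kdm4b (-1.47). Of the SETDB1 and TRIM28 partners 4 rose and 1 fell, led by the bromodomain gene Trim24 (0.99) and Atf7ip2 (0.96). Of the EHMT1 and EHMT2 partners 3 rose and 1 fell, led by Cdyl2 (0.61) and Pcgf6 (0.61). Of the KRAB zinc finger genes 2 rose and 1 fell, led by Zfp809 (1.61) and Zfp819 (-0.81). Of the HP1 partners 1 rose, the H4K20 methyltransferase Kmt5b (0.81), and 2 fell, led by Lbr (-0.51), the lamin B receptor. Mecom was the 1 called gene of the other methyltransferases (1.95).

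The genes whose log2(FPKM + 0.5) followed a member most closely across the 18 libraries were, for Trim28, Zfp819 (Pearson r = 0.98), Phb (0.98) and Ctbp2 (0.979); for Suv39h1, Rassf10 (0.987), Ccnjl (0.985) and Zfp362 (0.984); and for Ehmt1, Nectin3 (0.987), Lrfn4 (0.983) and Chd7 (0.979). For Atf7ip they were Mllt10 (0.973), Ticrr (0.941) and Tspan32 (0.935). For Cbx1 they were Zkscan5 (0.969), Bdh2 (0.961) and Hnrnpa2b1 (0.942), the divergent neighbour of Cbx3; for Cbx3, Bcl7c (0.906), Taf15 (0.901) and Xndc1 (0.891); and for Cbx5, Scaf1 (0.96), Prrc2a (0.953) and Cep78 (0.934). For Ehmt2 they were Tspyl2 (0.919), Zdhhc3 (0.915) and Bcam (0.914), for Suv39h2 Has2os (0.918), Acvr2b (0.916) and Tex9 (0.914), and for Setdb1 Iqub (0.964), Nt5e (0.959) and Vmn1r48 (0.959), of which Iqub and Vmn1r48 had mean levels of only 1.478 and 1.599 FPKM. Among the members themselves the highest correlation was between Suv39h2 and Ehmt1 (0.891) and the lowest between Atf7ip and Ehmt1 (-0.821). The libraries share groups and cultures, so these values are descriptions.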

How the data were processed

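RNA of 18 libraries was measured by RNA-seq. The authors deposited FPKM values over exons, 1 RefSeq entry per gene; Bowtie2 2.2.6, HOMER 4.8, limma and the mm9 build are named, per the submitters' processing notes. The labels' protocols name oligo(dT) enrichment followed by rRNA depletion, while the design text names rRNA depletion of total RNA; strand and counting options are not stated. The authors also deposited a table of log2 values, with the same median and maximum in every library, used here as an alternative. Tables of repeats were not used here.

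The scale of the FPKM values and the depth were inferred from their steps: 100.0% of the low values examined were whole multiples within 0.1 of a unit. Values were tested as log2(FPKM + 0.5) with limma 3.58.1 (R 4.3.3, moderated with a mean trend) in 1 fit of 6 group means. Genes with an FPKM under 1 in all but 2 or fewer libraries were left out, which kept 18002, and p-values were adjusted by Benjamini-Hochberg over these in each of 9 comparisons. Fold changes are on the log2(FPKM + 0.5) scale, which understates changes of low genes. The fit was tested on simulated data. Python 3.11.15 with pandas 2.3.3, numpy 2.4.6 and matplotlib 3.10.9 made the other tables and plots.

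The 10 genes, the gene lists and the tests were chosen with earlier results of these data known. All 10 members are named, with, in each comparison described for a list, its 2 called genes that changed most, and the 3 genes most correlated with each member. Same-numbered libraries deviated together in 1 pair of groups, WT serum and WT 2i (r = 0.146, 0.171 and 0.326), so numbers were taken as pairing for that comparison only. No replicates had the same values. Alternatives changed the pseudocount, the filter, the scaling, the libraries in the fit, the replicate block and the chromosome shift. The removal of chromosome medians of differences, and the block with only the groups compared, were chosen after seeing the data.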

Additional observations from a re-analysis of the deposited data

Results flagged for a closer look

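The effect of Daxx loss differed between cultures by a test of the difference itself (limma, all 18 libraries) for the genes below, and each value is the log2 difference of the effect. Between 2i and serum it was -0.703 for Atf7ip, -0.622 for Trim28, 0.525 for Suv39h1, -0.786 for Ehmt2, -0.748 for Cbx1, -0.861 for Cbx3 and -0.58 for Cbx5. Between retinoic acid and serum it was -0.756 for Atf7ip. Daxx-null serum libraries lacked RNA of the Y-linked genes that Daxx-null 2i libraries held, and the part of that difference in these values was not tested.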

How the results depend on the processing

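For the 10 members, 90 of 90 values kept direction and call with a pseudocount of 1 or of 0.1, and 90 of 90 with the replicate block, which changed no call of a member. For the paired comparison, 2i minus serum in wild type, the replicate block with only the groups compared ended the call of Trim28 (-0.4, adjusted p = 0.094) and called Cbx3 (0.279, adjusted p = 0.014). Over all settings 59 values changed sign, 5 of them of called members; the cause was not tested. Quantile normalization and the authors' normalised table gave Cbx1 -0.02 in serum (Daxx-null minus wild type), Trim28 0.091 and 0.092 in 2i, Suv39h2 -0.189 and -0.187 for 2i minus serum effect, and, for retinoic acid in wild type, Setdb1 0.089 and Cbx3 0.012. Median-ratio scaling gave Cbx3 0.064 in serum, Atf7ip -0.087 in 2i, Cbx1 0.021 in retinoic acid, Suv39h2 -0.232 for the 2i minus serum effect, and in wild type Cbx5 0.046 (2i) and Setdb1 0.013 (retinoic acid). Without both Daxx-null 2i replicate 2 and wild-type 2i replicate 3, Atf7ip was -0.063 in 2i, and in wild-type 2i Ehmt2 was -0.008 and Cbx5 0.01. With chromosome medians of differences removed, Cbx3 was 0.059 in serum, Cbx1 0.094 in retinoic acid, and in wild type Cbx3 -0.088 and Cbx5 0.097 (2i) and Suv39h2 -0.022 (retinoic acid). With chromosome medians of levels removed, the Daxx effects were, in serum, Suv39h1 0.111, Suv39h2 0.087, Cbx3 0.304 and Cbx5 0.116; in 2i, Atf7ip -0.067 and Suv39h1 -0.371; in retinoic acid, Cbx1 0.21 and Cbx3 0.004; between 2i and serum, Suv39h1 -0.482 and Suv39h2 -0.427; and between retinoic acid and serum, Ehmt1 -0.082 and Cbx5 0. The culture effects were then, in wild type, Cbx3 -0.102 and Cbx5 0.157 (2i) and Suv39h2 -0.195 and Cbx5 -0.047 (retinoic acid), and in Daxx-null cells Setdb1 -0.309, Atf7ip -0.648 and Suv39h1 -0.852 (2i) and Cbx5 -0.047 (retinoic acid). The members called in serum numbered 5 with only the groups compared and 6 with chromosome medians of levels removed. Of all genes, 2392 were called higher and 4526 lower in serum with only the groups compared. With chromosome medians of levels removed 3136 were called higher and 1897 lower. In 2i, 3 members and 3929 genes were called with only the groups compared. For the retinoic acid minus serum effect, 2 members were called with no filter, 0 after quantile normalization or in the authors' table, and 4 members and 3739 genes with only the groups compared. Of all genes, 793 were called higher and 569 lower for that effect with no filter. The counts were 561 and 652 after quantile normalization and 571 and 671 in the authors' table. In wild type 3 members were called for 2i with median-ratio scaling and 8 for retinoic acid with chromosome medians of levels removed, and 281 genes were called between genotypes in retinoic acid after quantile normalization or in the authors' table. For wild-type 2i with median-ratio scaling 4822 genes were called higher and 4063 lower. For wild-type retinoic acid with chromosome medians of levels removed 4863 were called higher and 6923 lower. Leaving out 1 library at a time kept direction and call for 600 of 660 member values, and 15 changed sign. The ranges of those that changed sign were, for the Daxx effect, Atf7ip -0.032 to 0.245 in 2i and -0.095 to 0.104 in retinoic acid, Cbx1 -0.034 to 0.068 in serum and -0.054 to 0.004 in retinoic acid, Cbx3 -0.111 to 0.043 in serum and -0.249 to 0.068 in retinoic acid, and Ehmt1 -0.015 to 0.09 in serum. For the retinoic acid minus serum effect they were Cbx1 -0.095 to 0.007 and Cbx3 -0.202 to 0.115, for the 2i minus serum effect Suv39h2 -0.048 to 0.076, and in wild-type 2i Cbx5 -0.022 to 0.01 and Ehmt2 -0.008 to 0.183. Then 839 to 1162 genes and 0 to 1 members were called for the retinoic acid minus serum effect, and 240 to 385 genes between genotypes in retinoic acid.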
